A study of Homo sapiens with 30 samples.

Results

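Genes of the cornified envelope were followed across RWPE1 prostate epithelial lines with and without the transcription factor ERG and an active AKT. The 9 genes, of 26251 in the RNA-seq table, are SPRR1A, SPRR1B, SPRR2A, SPRR2D, SPRR3, IVL, CNFN, TGM1 and A2ML1, and they were chosen by their FPKM in these lines, so every expression ratio given for them is a description and carries no test. RWPE1 is an immortalised line of normal human prostate epithelium. The lines were made with retroviruses that carry ERG isoform 1 (RWPE1-ERG), a myristoylated AKT that is held at the membrane and stays active (RWPE1+mAKT), both (RWPE1-ERG+mAKT) or neither (RWPE1-Vector), and were kept under hygromycin and puromycin, so the controls carry the empty vectors and the resistance genes too. Each line is a selected culture in which virus drives the added genes at all times. RNA-seq was run on 3 libraries a line, which the authors combined into 1 FPKM (fragments scaled to transcript length and to library size) a gene and line. ATAC-seq was run as 1 library in each of these 4 lines. ERG, ERK2 and H3K27me3 ChIP-seq were run as 1 library each in some of them, in RWPE1-ERG S96E cells and in VCaP. The S96E cells carry ERG with a phosphomimetic change. VCaP is a prostate cancer line with a TMPRSS2-ERG fusion that was given DMSO vehicle before the ChIP.

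The cornified envelope is the sheath of cross-linked protein that replaces the plasma membrane of squamous cells as they finish differentiation. Involucrin (IVL) and the small proline-rich proteins (SPRR) are its soluble precursors, cornifelin (CNFN) is another component, and transglutaminase 1 (TGM1) joins them by bonds between glutamine and lysine. A2ML1 is a protease inhibitor of the same upper layers. Prostate epithelium does not normally build this sheath, and its genes are known there mainly from squamous change.

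On hg19, 6 of the 9 genes lie within 149 kb of chromosome 1, between 152881039 and 153029988, in the epidermal differentiation complex, a cluster of genes for late epidermal proteins. Their order is IVL, SPRR1A, SPRR3, SPRR1B, SPRR2D and SPRR2A, the last pair on the minus strand. A2ML1 lies on chromosome 12, TGM1 on chromosome 14 and CNFN on chromosome 19. The 200 bases before the start of each gene on chromosome 1 are shown because all 6 hold the sequence TGANTCA, the form bound by AP-1 factors, which was searched on both strands. It was present before 6 of the 9 members and before 4.07% of 20328 genes of the table with an annotated start. GGAA, the core that ETS factors such as ERG recognise, was present before 9 of 9 members and before 86.5% of the same genes. Capitals mark TGANTCA and GGAA on either strand (GGAA reads TTCC on the other, and overlapping matches run together), and each line reads 5′ to 3′ towards the gene.

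SPRR1A, chr1:152956357-152956556, plus strand: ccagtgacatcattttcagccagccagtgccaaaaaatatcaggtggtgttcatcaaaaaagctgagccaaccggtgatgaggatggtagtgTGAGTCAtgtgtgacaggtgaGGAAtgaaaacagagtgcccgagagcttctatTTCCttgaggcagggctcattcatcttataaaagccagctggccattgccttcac
SPRR1B, chr1:153003479-153003678, plus strand: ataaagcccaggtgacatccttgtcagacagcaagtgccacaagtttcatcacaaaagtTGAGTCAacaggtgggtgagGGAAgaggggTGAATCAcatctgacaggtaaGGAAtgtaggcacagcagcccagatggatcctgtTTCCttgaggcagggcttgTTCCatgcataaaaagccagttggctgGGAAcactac
SPRR2A, chr1:153029989-153030188, minus strand: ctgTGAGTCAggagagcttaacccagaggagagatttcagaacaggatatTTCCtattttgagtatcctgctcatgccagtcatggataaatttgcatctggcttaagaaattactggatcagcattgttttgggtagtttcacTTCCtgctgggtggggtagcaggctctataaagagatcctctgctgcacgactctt
SPRR2D, chr1:153013597-153013796, minus strand: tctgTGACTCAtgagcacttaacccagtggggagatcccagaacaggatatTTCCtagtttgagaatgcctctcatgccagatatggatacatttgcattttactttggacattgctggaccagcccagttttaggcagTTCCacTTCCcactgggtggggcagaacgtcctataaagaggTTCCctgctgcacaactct
SPRR3, chr1:152974025-152974224, plus strand: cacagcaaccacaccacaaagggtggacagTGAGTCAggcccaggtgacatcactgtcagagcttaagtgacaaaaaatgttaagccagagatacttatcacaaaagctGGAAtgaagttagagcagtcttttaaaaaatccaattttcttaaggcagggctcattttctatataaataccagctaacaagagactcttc
IVL, chr1:152880822-152881021, plus strand: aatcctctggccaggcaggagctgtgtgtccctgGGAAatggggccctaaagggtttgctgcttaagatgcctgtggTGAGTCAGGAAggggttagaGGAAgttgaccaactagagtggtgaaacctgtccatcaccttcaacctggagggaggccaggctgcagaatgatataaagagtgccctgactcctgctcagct
A2ML1, chr12:8975017-8975216, plus strand, shown for its open promoter: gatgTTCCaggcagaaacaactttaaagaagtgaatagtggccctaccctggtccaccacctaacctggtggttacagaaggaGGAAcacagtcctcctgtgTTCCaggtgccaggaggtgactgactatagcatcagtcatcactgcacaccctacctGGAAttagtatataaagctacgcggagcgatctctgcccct

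The TGANTCA match began 108 bases before the start of SPRR1A, 123 before IVL and 170 before SPRR3. In the SPRR2 pair it lay at nearly the same place, 197 bases before SPRR2A and 196 before SPRR2D. SPRR1B had matches at 141 and 111 bases. No TGANTCA match stood in these windows of A2ML1, TGM1 or CNFN. The longest run of bases shared by the SPRR1A and SPRR1B windows was 18, and that shared by SPRR2A and SPRR2D was 19. These matches are letters in the reference and do not show that a factor was bound.

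Expression of the added genes followed the labels. ERG was at 0.264 FPKM in RWPE1-Vector and 0.435 in RWPE1+mAKT, against 358 in RWPE1-ERG and 328 in RWPE1-ERG+mAKT. AKT1, whose row can also take reads from the virus, was at 58.7 and 64.2 FPKM in the lines without mAKT and at 156 and 281 in RWPE1+mAKT and RWPE1-ERG+mAKT. The depth of the RNA-seq libraries is not given in the sources used here, and the pooled values have no spread, so no interval is given for any FPKM. Of the markers, the basal KRT5, KRT14 and TP63 were present in every line, with a summed level of 1891 FPKM in RWPE1-ERG and 4742 to 6208 in the other lines. Of the luminal markers, KLK3 was listed at 0 in all 4 lines. In bulk RNA, fewer cells that express a gene and less RNA in each cell cannot be told apart.

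With mAKT, the envelope precursors were higher in both backgrounds. In RWPE1+mAKT, 7 of the 9 members were at least 2-fold above RWPE1-Vector and none was 2-fold below, where 1.74% of 12667 genes that reached 1 FPKM in some line were 2-fold higher and 1.40% were 2-fold lower. Against RWPE1-ERG, RWPE1-ERG+mAKT also had 7 members higher and none lower (3.21% and 3.91% of all genes). Against RWPE1-Vector, RWPE1-ERG+mAKT had the same count, 7 higher and none lower (4.19% and 2.04%). These 3 comparisons share lines and were part of how the members were chosen, so the counts are not support for each other. The members' median log2 ratio was 2.83 for mAKT over Vector and 5.66 for ERG+mAKT over ERG, and that of all genes tested was 0.02 and −0.05. All 9 members passed the limit of 1 FPKM in some line, but 3 of them did so in RWPE1-Vector, 4 in RWPE1-ERG and 9 in each line with mAKT. The ratios of the rest are therefore set by very low values in the lower line. With 1 FPKM added to each value, the log2 ratio of SPRR3 for mAKT over Vector went from 3.59 to 0.90, under 2-fold, and the other 6 stayed above it.

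SPRR1A and SPRR1B were the most abundant members in both lines with mAKT. SPRR1B was at 6.47 FPKM in RWPE1-Vector, 1.48 in RWPE1-ERG, 45.9 in RWPE1+mAKT and 74.8 in RWPE1-ERG+mAKT. The log2 ratio was 2.83 for mAKT over Vector and 5.66, a 50.4-fold difference, for ERG+mAKT over ERG. SPRR1A was at 1.00, 0.367, 20.3 and 33.9 FPKM in the same order of lines. Both genes thus had the order ERG, Vector, mAKT, ERG+mAKT from low to high, and the pair made up 48.2% of the members' summed FPKM in RWPE1-Vector, 17.4% in RWPE1-ERG, 79.0% in RWPE1+mAKT and 73.2% in RWPE1-ERG+mAKT. That sum was 15.5 FPKM in RWPE1-Vector, 10.7 in RWPE1-ERG, 83.8 in RWPE1+mAKT and 149 in RWPE1-ERG+mAKT.

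SPRR2A and SPRR2D are near-identical copies whose reads can be split between them, and SPRR2A was the member that differed most between the lines with mAKT, by 8.06-fold. SPRR2A was at 0.137 FPKM in RWPE1-Vector, 0.0997 in RWPE1-ERG, 1.93 in RWPE1+mAKT and 15.6 in RWPE1-ERG+mAKT. SPRR2D was at 0.350, 1.10, 2.40 and 6.30 FPKM in that order. SPRR2D was the higher of the pair by 1.24-fold in RWPE1+mAKT, and SPRR2A was the higher by 2.47-fold in RWPE1-ERG+mAKT. As the copies can share reads, each of these levels is uncertain, and the read assignment was not tested.

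SPRR3, a proline-rich precursor best known from the oesophagus, was the lowest member, with 0.0849 FPKM in RWPE1-Vector, 0.0254 in RWPE1-ERG, 1.03 in RWPE1+mAKT and 1.92 in RWPE1-ERG+mAKT. IVL, the scaffold on which the envelope is assembled, was at 0.260, 0.791, 1.64 and 4.43 FPKM. A2ML1, the inhibitor, was at 0.103, 0.0501, 1.66 and 2.88 FPKM. These 3 genes were under 1 FPKM in both lines without mAKT and at or above it in both lines with mAKT.

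TGM1 and CNFN were the members that did not differ by 2-fold in these comparisons, though TGM1 too was higher in both lines with mAKT than in both without. TGM1, the cross-linking enzyme, was at 4.40 FPKM in RWPE1-Vector, 2.53 in RWPE1-ERG, 5.85 in RWPE1+mAKT and 5.03 in RWPE1-ERG+mAKT. Of the ratios compared, its widest, 1.99 for ERG+mAKT over ERG, lay just under the 2-fold limit, and with the ratios centred on the median of all genes its log2 ratio was 1.04, just over it. CNFN was at 2.69, 4.21, 3.06 and 3.76 FPKM, highest in RWPE1-ERG, and no pair of lines differed by 2-fold. The enzyme and this component were thus at 2.53 to 5.85 FPKM in every line.

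**Figure D1:**
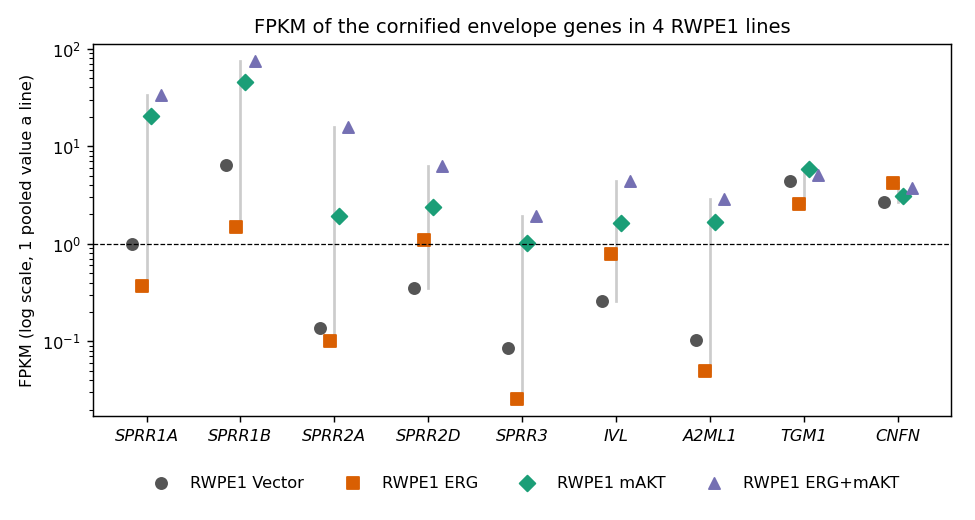
FPKM of the 9 members (horizontal axis) in RWPE1-Vector (circles), RWPE1-ERG (squares), RWPE1+mAKT (diamonds) and RWPE1-ERG+mAKT (triangles) on a log axis, with 1 pooled value a line and no error bars. The dashed line is 1 FPKM, and every member but CNFN has both mAKT lines above both lines without mAKT, with TGM1 and CNFN between 2.53 and 5.85 FPKM in all lines.

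The ERG comparisons split the members by background. Without mAKT, ERG went with 2 members that were at least 2-fold higher, SPRR2D and IVL, and 4 that were at least 2-fold lower, SPRR1A, SPRR1B, SPRR3 and A2ML1, beside 5.16% of all genes higher and 2.16% lower. SPRR1B was 4.36-fold lower and SPRR3 3.34-fold lower than in RWPE1-Vector, and SPRR2D was 3.14-fold and IVL 3.04-fold higher. Of these 6, SPRR1B was the only member above 1 FPKM in RWPE1-Vector, and SPRR3 and A2ML1 were near 0.1 FPKM or under in both lines. With 1 FPKM added to each value, 0 members were 2-fold higher and 1, SPRR1B, was 2-fold lower. The members' median log2 ratio was −0.80 for ERG over Vector and 0.79 for ERG+mAKT over mAKT, and that of all genes tested was −0.01 and −0.08. With mAKT, 3 members were at least 2-fold higher with ERG, SPRR2A by 8.06-fold, IVL by 2.71-fold and SPRR2D by 2.63-fold, and none was 2-fold lower, beside 3.20% of all genes higher and 1.49% lower. SPRR1A, SPRR1B, SPRR3 and A2ML1 were 1.67, 1.63, 1.87 and 1.73-fold higher there. AKT1 was at 281 FPKM in RWPE1-ERG+mAKT and 156 in RWPE1+mAKT. These lines thus differ in AKT1 RNA as well as in ERG, and the part of each was not tested. IVL and SPRR2D were more than 2-fold higher with ERG in both backgrounds, with ratios of 3.04 and 2.71 for IVL and 3.14 and 2.63 for SPRR2D.

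**Figure D2:**
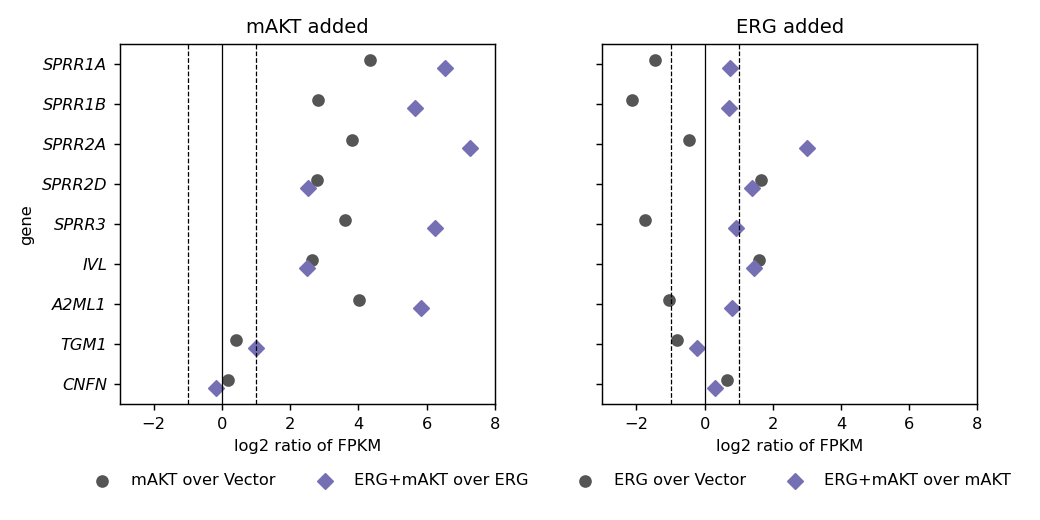
Log2 ratio of FPKM (horizontal axes) for each member (vertical axis), with mAKT added on the left and ERG added on the right. Circles compare with RWPE1-Vector and diamonds compare lines that differ in the same gene within the other background, the dashed lines mark 2-fold, and SPRR1A, SPRR1B, SPRR2A, SPRR3 and A2ML1 lie left of 0 for ERG over Vector and right of 0 for ERG+mAKT over mAKT.

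The wider envelope list was mostly silent. Of 38 other envelope precursors, among them filaggrin, loricrin and the late cornified envelope (LCE) genes, 9 passed 1 FPKM in any line and 15 were listed at 0 in all 4 lines. Of the 9, 2 were at least 2-fold higher and 0 lower for mAKT over Vector, beside 1.74% and 1.40% of all genes. For ERG+mAKT over ERG, 4 were higher and 1 lower, beside 3.21% and 3.91%. Those above 5 FPKM were CSTA, PI3, SCEL, PPL, EVPL and CST6. CSTA, PI3, PPL and EVPL were higher in both lines with mAKT than in both without, each within 2-fold for mAKT over Vector. SCEL and CST6 were highest in RWPE1-ERG. CSTA was at 67.1 FPKM in RWPE1-Vector, 48.1 in RWPE1-ERG, 125 in RWPE1+mAKT and 127 in RWPE1-ERG+mAKT. PI3 was at 37.3, 43.0, 49.6 and 107 FPKM in that order. CST6, a cystatin that inhibits proteases of the cornified layer, was at 9.51 FPKM in RWPE1-Vector, 74.3 in RWPE1-ERG, 7.27 in RWPE1+mAKT and 18.5 in RWPE1-ERG+mAKT, an order unlike that of the members. Of the other transglutaminases, TGM2, the widely expressed tissue enzyme, was at 8.73, 53.5, 5.36 and 4.18 FPKM, and TGM5 was at most 0.041 FPKM and TGM3 was listed at 0 in both lines without mAKT. TGM2 was thus highest in RWPE1-ERG, where TGM1 was lowest.

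Regulators of keratinocyte differentiation were mostly higher in RWPE1-ERG+mAKT than in RWPE1-ERG. Of 13 such genes, 11 passed 1 FPKM in any line. For ERG+mAKT over ERG, 8 of the 11 were at least 2-fold higher and 0 lower, beside 3.21% and 3.91% of all genes. Fewer were higher in the other comparisons, 5 for ERG+mAKT over Vector (4.19% of all genes), 4 for ERG+mAKT over mAKT (3.20%) and 3 for mAKT over Vector (1.74%), where 1 was lower (1.40%). Among those that were 2-fold higher for ERG+mAKT over mAKT, named after their values were seen, were GRHL3 (3.64-fold), ZNF750 (2.80-fold) and OVOL1 (2.14-fold), all transcription factors of epidermal differentiation. GRHL3 was at 0.743 FPKM in RWPE1-Vector, 0.511 in RWPE1-ERG, 1.29 in RWPE1+mAKT and 4.70 in RWPE1-ERG+mAKT. ZNF750 was at most 2.76 FPKM and OVOL1 at most 1.92. GRHL1, KLF4, CEBPB and TP63, which were above 5 FPKM in some line, were each within 2-fold for mAKT over Vector and for ERG over Vector. For ERG+mAKT over ERG, GRHL1 was 5.12-fold and KLF4 3.27-fold higher, and TP63 and CEBPB were within 2-fold. The summed basal, luminal and mesenchymal markers also moved between these lines. In RWPE1-ERG, KRT5 and KRT14 were at least 2-fold lower and KRT8 and KRT18 at least 2-fold higher than in RWPE1-Vector. These are 2 of 3 basal and 2 of 3 tested luminal markers, beside 2.16% of all genes lower and 5.16% higher. The mesenchymal markers summed to 824 FPKM in RWPE1-Vector, 1291 in RWPE1-ERG, 420 in RWPE1+mAKT and 313 in RWPE1-ERG+mAKT. VIM made up most of each sum, at 737, 1056, 366 and 288 FPKM in that order. For ERG over Vector, VIM was 1.43-fold, CDH2 2.43-fold and FN1 2.72-fold higher, and ZEB1, under 1 FPKM in every line, was lower. The part of these basal, luminal and mesenchymal markers in the members' levels was not tested.

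Among 9309 other genes with at least 5 FPKM in a line, the nearest to the members' mean pattern over the 4 lines were AKT1, SCARNA15, NOTCH3, KLK8 and KRT6B. Nearness was the root mean square difference of log2(FPKM + 1) after each gene's own mean was taken off, and it ran from 0.11 for AKT1 to 0.22 for KRT6B. By the same measure the members themselves lay from 0.17 (A2ML1) to 1.10 (SPRR1A) from their mean pattern. It is therefore an average that most members did not follow closely. NOTCH3, a Notch receptor, was at 2.98 FPKM in RWPE1-Vector, 1.44 in RWPE1-ERG, 7.37 in RWPE1+mAKT and 12.4 in RWPE1-ERG+mAKT. KLK8, a protease of the upper epidermis, was at 1.77, 1.21, 5.01 and 7.38 FPKM, and KRT6B, a keratin of activated keratinocytes, at 5.26, 6.15, 14.2 and 22.6 FPKM. The AKT1 row can take reads from the virus, as said above. With a pseudocount of 0.1, 2 of these 5 genes stayed among the nearest 5. Nearness over 4 pooled values says only that the spacing of the levels was close, and AKT1 and KRT6B were lowest in RWPE1-Vector, where the members' mean pattern was lowest in RWPE1-ERG.

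Open chromatin was read from the ATAC peak lists of 3 lines, which hold 63091 peaks for RWPE1-ERG, 57728 for RWPE1+mAKT and 41833 for RWPE1-ERG+mAKT on chromosomes 1 to 22, X and Y. An ATAC library of RWPE1-Vector was also made, but no list of it is used here. Open chromatin with mAKT alone is therefore not set beside RWPE1-Vector. The depth, 35688481 fragments, is recorded for RWPE1+mAKT alone, so a peak missing from a list is not detected there and may still be open. Within 20 kb of the gene's span, a peak was listed for 8 members in RWPE1-ERG, 9 in RWPE1+mAKT and 7 in RWPE1-ERG+mAKT, and 89.3%, 88.2% and 84.0% of all 25956 genes had one. These shares are near the background. Over the promoter, taken as 250 bases before to 50 after the start and examined after the data were seen, there were peaks for 2, 4 and 1 members, against 59.3%, 58.0% and 54.5% of genes with an annotated start.

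The RWPE1+mAKT list was the one with open promoters at SPRR1A and SPRR1B. At SPRR1A the peak ran from 228 bases before the start to 7 after it, with a fold enrichment over the local background of 3.64, and at SPRR1B from 205 before to 20 after, with a fold of 3.23. The printed TGANTCA matches of both genes lie inside these peaks. The other lists held no peak over either promoter, among them RWPE1-ERG+mAKT, the line with the highest FPKM of both genes. SPRR2D had a promoter peak in RWPE1-ERG (fold 6.08) and in RWPE1+mAKT (6.60). A2ML1 had one in all 3 lists, with folds of 10.2 in RWPE1+mAKT, 5.41 in RWPE1-ERG and 4.73 in RWPE1-ERG+mAKT.

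**Figure D3:**
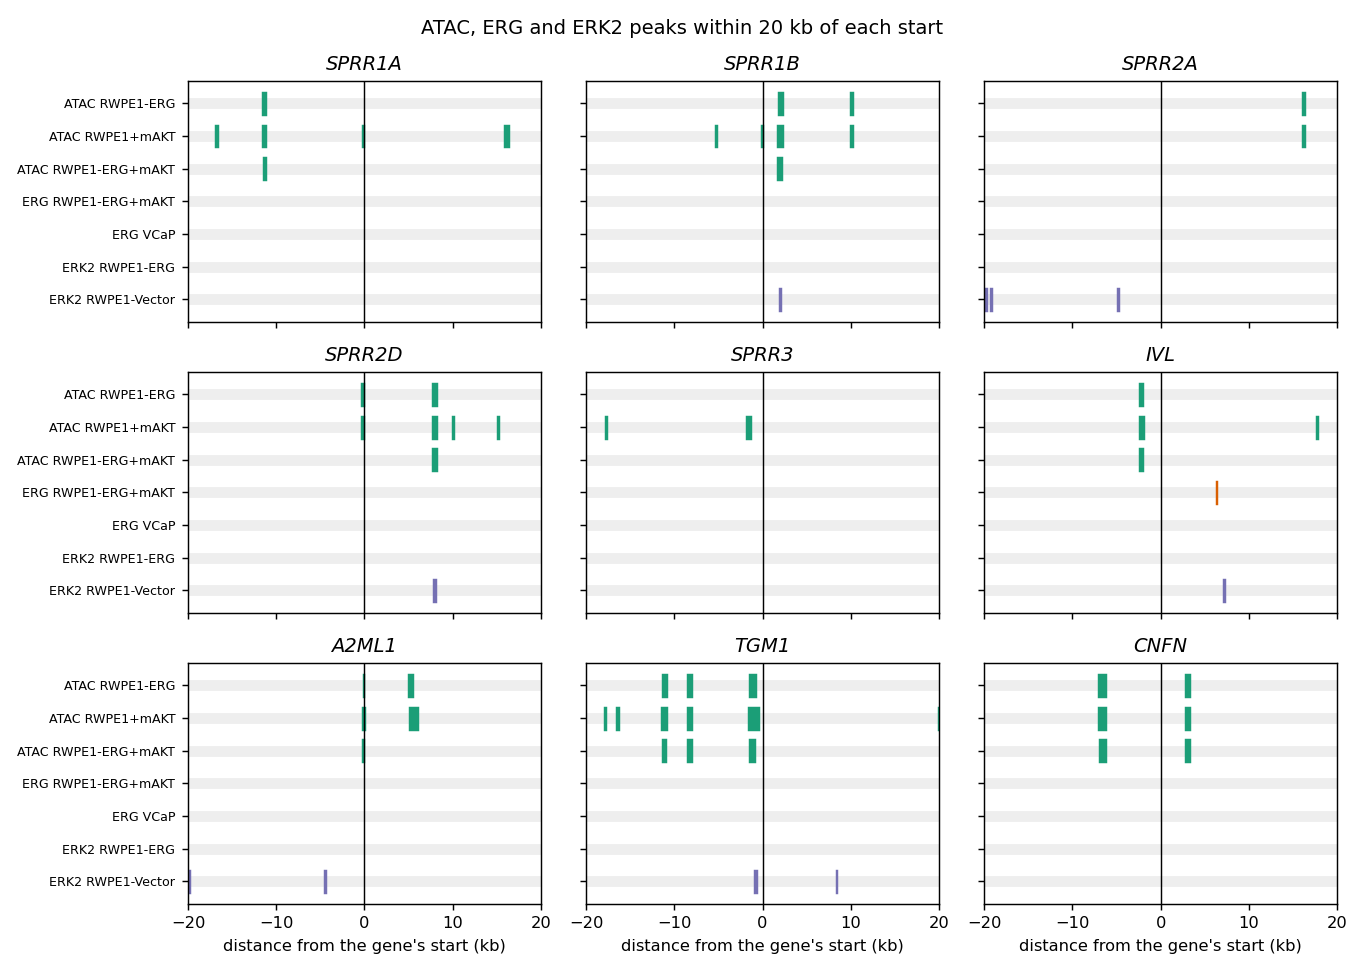
ATAC (green), ERG (orange) and ERK2 (purple) peaks of 7 lists (rows) against the distance from the start of each member in kb, with positive distances into and beyond the gene. The IVL site 2.2 kb before the start is in all 3 ATAC lists, and promoter peaks of SPRR1A and SPRR1B are in the RWPE1+mAKT list alone, while peaks of TGM1 that lie over 20 kb past its start fall outside the panel.

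Where a site was listed in several lines, its read pileup could be set beside that of all shared sites, so that a difference in depth common to all sites is divided out. This comparison was chosen after the data were seen. RWPE1+mAKT and RWPE1-ERG differ in both ERG and mAKT. Across the 45408 sites they shared, the median pileup ratio of RWPE1+mAKT over RWPE1-ERG was 0.801. At 3 member sites the ratio was far above it. IVL had an open site centred 2.21 kb before its start with a pileup of 148 in RWPE1+mAKT and 34.4 in RWPE1-ERG, 5.37-fold above the median ratio and above 99.8% of shared sites. The A2ML1 promoter had 83.9 and 17.3, 6.04-fold above the median, and a site centred 1.04 kb before the start of TGM1 had 176 and 19.3, 11.4-fold above it. Against RWPE1-ERG+mAKT, where 36861 sites were shared and the median ratio was 1.46, the same sites were 2.98-fold (IVL), 3.25-fold (A2ML1) and 3.95-fold (TGM1) above the median. For RWPE1-ERG+mAKT over RWPE1-ERG, lines that differ in mAKT, they were 1.84-fold (IVL), 1.90-fold (A2ML1) and 2.95-fold (TGM1) above a median of 0.536. These ratios were above 86.8%, 87.9% and 97.0% of 36522 shared sites. At the other member sites that RWPE1+mAKT and RWPE1-ERG shared, the ratio was 0.775 to 1.52-fold of the median. The CNFN site 3.0 kb past the start was 1.01-fold above the median for RWPE1+mAKT over RWPE1-ERG, and the site 2.0 kb past the start of SPRR1B was 0.838-fold. Each list is 1 library, so these ratios have no replicate check. In the lines of these site comparisons, TGM1 was at 5.85 FPKM in RWPE1+mAKT, 2.53 in RWPE1-ERG and 5.03 in RWPE1-ERG+mAKT. IVL was at 1.64, 0.791 and 4.43 FPKM in that order, and A2ML1 at 1.66, 0.0501 and 2.88. IVL and A2ML1 thus had more RNA in RWPE1-ERG+mAKT than in RWPE1+mAKT, where their sites had the higher pileup.

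**Figure D4:**
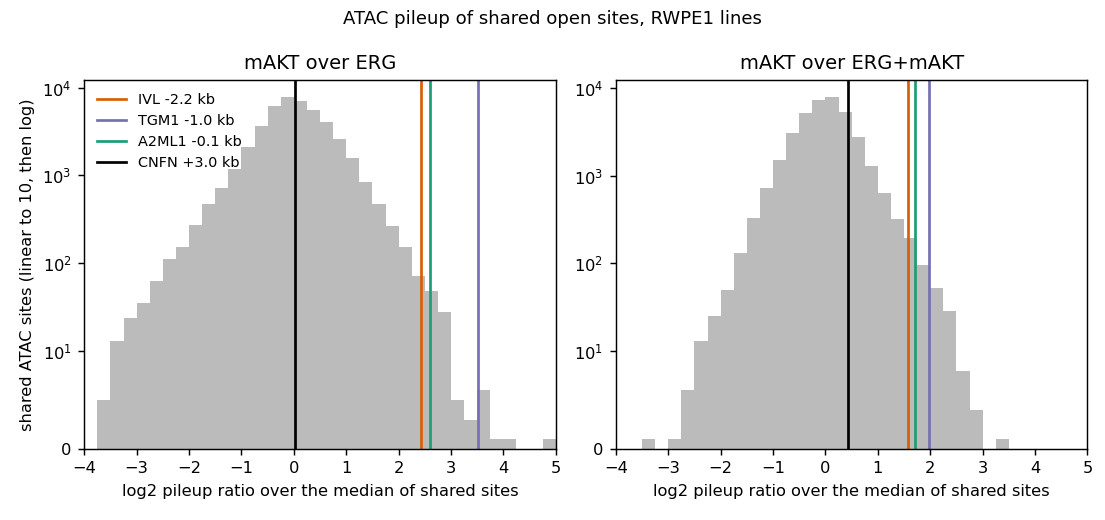
Number of ATAC sites shared by the RWPE1+mAKT list and the RWPE1-ERG list (left) or the RWPE1-ERG+mAKT list (right), by log2 pileup ratio over the median of shared sites, with the vertical axis linear to 10 and log above. Coloured lines mark 4 member sites, of which those of IVL, TGM1 and A2ML1 lie far to the right on the left panel (5.37, 11.4 and 6.04-fold) and that of CNFN lies at the middle (1.01-fold).

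The central 300 bases of the IVL site and of the SPRR1B site are shown on the plus strand, since an enhancer with an AP-1 element is known upstream of the involucrin gene and both hold TGANTCA. The match was present in 28.0% of the central 300 bases of all RWPE1+mAKT ATAC peaks, and GGAA in 95.1%. The IVL site held 1 match and the SPRR1B site 2.

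IVL site, chr1:152878665-152878964: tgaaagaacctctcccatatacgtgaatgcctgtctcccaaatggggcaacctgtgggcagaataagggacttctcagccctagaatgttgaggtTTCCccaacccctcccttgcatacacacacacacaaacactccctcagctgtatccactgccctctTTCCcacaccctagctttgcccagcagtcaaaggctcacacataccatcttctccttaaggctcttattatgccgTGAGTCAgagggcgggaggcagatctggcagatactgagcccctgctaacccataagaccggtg
SPRR1B site, chr1:153005509-153005808: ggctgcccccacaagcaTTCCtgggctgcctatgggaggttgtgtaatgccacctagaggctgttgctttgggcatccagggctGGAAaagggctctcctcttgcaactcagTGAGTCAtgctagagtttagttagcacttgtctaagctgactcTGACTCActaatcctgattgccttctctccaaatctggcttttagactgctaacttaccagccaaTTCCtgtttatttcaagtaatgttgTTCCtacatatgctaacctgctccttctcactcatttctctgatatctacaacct

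In RWPE1-ERG+mAKT cells 1 member, IVL, had an ERG peak within 20 kb, beside 30.5% of all genes. It lay 6288 to 6441 bases after the IVL start, beyond the gene, with a fold enrichment of 3.53 and a −log10 p-value of 4.13, and its −log10 q-value was 0.155. The 151 bases around its summit are shown because it is the one ERG peak of these cells near a member and holds no GGAA, which 80.3% of the windows of all 9113 ERG peaks held.

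ERG peak, chr1:152887313-152887463, plus strand: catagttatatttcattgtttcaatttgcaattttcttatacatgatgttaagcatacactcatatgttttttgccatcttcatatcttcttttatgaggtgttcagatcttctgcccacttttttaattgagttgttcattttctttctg

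In VCaP the single ERG peak near a member lay 22124 to 22478 bases past the start of TGM1, beyond its end, with a fold enrichment of 4.38, and 21.4% of all genes had a VCaP ERG peak that near. ERK2, the kinase at the end of the Ras pathway, had 2 peaks near 1 member, TGM1, in RWPE1-ERG cells (24.5% of all genes), with folds of 2.93 and 4.86. The stronger lay 20233 to 20540 bases past the TGM1 start, inside an ATAC site of all 3 lists. In RWPE1-Vector cells 6 members had an ERK2 peak, beside 69.0% of all genes, a share near the background, and that list holds 41276 peaks against 5721 in RWPE1-ERG. The one at SPRR1B, also within 20 kb of SPRR2D, lay 1826 to 2130 bases past the SPRR1B start, around the SPRR1B site printed above, and its fold was 2.80. SPRR2A had 3 ERK2 peaks before its start, the nearest 4710 to 4910 bases away with a fold of 2.41 and the strongest 19664 to 19864 bases away with a fold of 3.40. The IVL peak lay 7111 to 7311 bases past the start, with a fold of 2.90. A2ML1 had 2 peaks before its start with a fold of 3.08 each, the nearer 4343 to 4543 bases away. TGM1 had a peak 612 to 1007 bases before its start, over its upstream ATAC site, with a fold of 3.08, and another inside the gene with a fold of 2.90. None of the ERG or ERK2 peaks near a member had a q-value of 0.01 or less. That limit was met by 450 of 9113 ERG peaks in RWPE1-ERG+mAKT and 1555 of 5917 in VCaP. For ERK2 it was met by 178 of 5721 peaks in RWPE1-ERG and 306 of 41276 in RWPE1-Vector.

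H3K27me3, the mark that Polycomb repressive complex 2 lays on silent genes, was read as the share of bases under called regions in each gene's span and 20 kb to each side. Regions were near 9 members in RWPE1-Vector, 7 in RWPE1-ERG and 8 in RWPE1-ERG S96E cells, and 97.0%, 73.4% and 77.9% of all genes had one. The cover of the 6 members on chromosome 1 was 10.3% to 13.8% in RWPE1-Vector, where the median of all genes was 5.42%. In RWPE1-ERG, SPRR1B, SPRR2A, SPRR2D and SPRR3 had 9.05%, 13.4%, 8.39% and 6.69%, SPRR1A had 2.93% and IVL none, beside a median of 1.54%. In RWPE1-ERG S96E, SPRR2A had 17.8% and IVL 2.91%, beside a median of 3.13%. TGM1 had the least, 1.77% in RWPE1-Vector and none in the other lists. The IVL cover was thus 10.6% in RWPE1-Vector and none in RWPE1-ERG.

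The lists differ in size and depth, with 492265 regions from 19444504 reads in RWPE1-Vector, 228233 from 16513053 in RWPE1-ERG and 252784 from 26454542 in RWPE1-ERG S96E. With the 228233 regions of lowest p-value from each list, the IVL cover was 4.99%, 0% and 2.91% in that order. SPRR1A then had 8.40%, 2.93% and 7.63%, a wider gap between RWPE1-Vector and RWPE1-ERG than that of IVL, and SPRR2A had 9.37%, 13.4% and 16.2%. No region near a member had a q-value of 0.01 or less, and the highest fold enrichment among them was 3.12. Few regions met that limit anywhere, 29 in RWPE1-Vector, 39 in RWPE1-ERG and 3413 in RWPE1-ERG S96E. The neighbouring windows of the genes on chromosome 1 overlap, so their covers share regions.

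**Figure D5:**
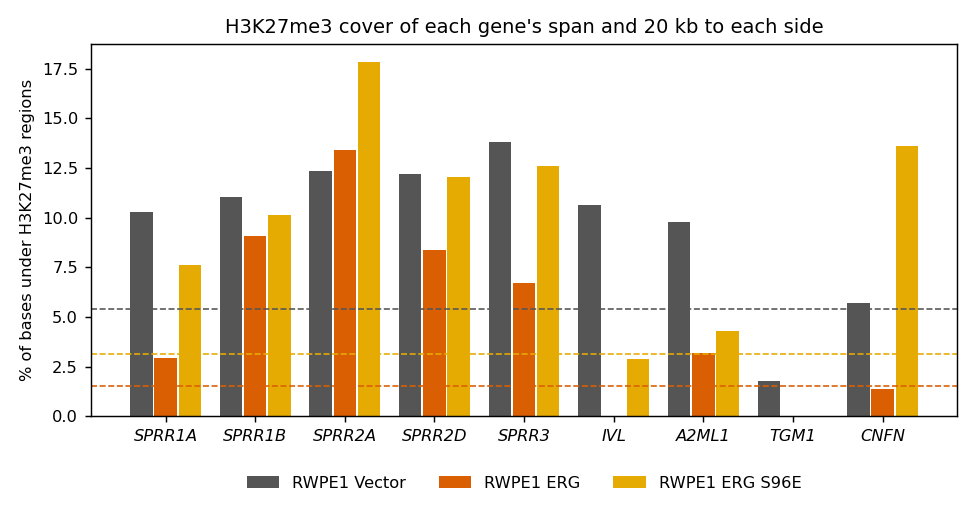
Percent of bases under H3K27me3 regions in the span of each member and 20 kb to each side, as bars for RWPE1-Vector (grey), RWPE1-ERG (orange) and RWPE1-ERG S96E (yellow), 1 library each, with the median of all genes in each list as a dashed line of the same colour. IVL stands at 10.6%, none and 2.91%, and the SPRR genes stand above the median in all 3 lists.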

How the data were processed

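RNA was poly(A) selected, aligned with TopHat2 and summarised with Cuffdiff by the authors, who deposited 1 FPKM a gene and line, pooled over 3 libraries. The table has 0 columns of single samples, and its test columns (fold changes, p-values and q-values) were not used. ChIP DNA was pooled from 3 experiments. ChIP and ATAC reads were mapped by the authors with Bowtie2 to hg19, duplicates were taken out with Picard, and MACS2 (2.1.2 or 2.2.7.1 where a header names it) gave the peaks. Per the file headers, each deposited peak has a pileup (coverage signal), a fold enrichment ratio and its p and q, both as −log10. The ATAC lists have no input control.

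Log2 ratios were taken of FPKM as deposited, a listed 0 being set to 0.1 FPKM, and a change means 2-fold. Genes needed at least 1 FPKM in any line. Symbols with more than 1 set of rows, 2 in all, were left out. Each of the 10 peak lists used was joined to genes by at least 1 bp of overlap. Starts and sequences come from GENCODE 44 on GRCh37, the build of the files. Code was tested on simulated data. Members and lists were chosen with earlier results of these data known, and the motifs, promoter windows and shared ATAC sites were chosen after the files were read. Genes named are the members, pathway-list genes above 5 FPKM in any line (by value where ERG or mAKT differed 2-fold from Vector), the 5 nearest patterns and every ERG or ERK2 peak near a member. Other pathway genes and markers named, such as GRHL3, ZNF750, OVOL1, TGM3, TGM5 and KLK3, fall outside this rule and were chosen after their values were seen. The FPKM of CSTA and PI3 were likewise given after they were seen. Lists attached to the VCaP input and to the VCaP LY294002 ERG ChIP held peaks that their labels do not describe and were not used. Alternatives were a pseudocount, median centring, other folds and filters, a 5 kb window, a q-value limit, distance from the start and equal list sizes. Some genes and sequences are not reported here. Python 3.11.15, numpy 2.4.6 and pandas 2.3.3 were used.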

Additional observations from a re-analysis of the deposited data

Results flagged for a closer look

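The direction of the ERG comparison was opposite without and with mAKT for 5 members, and that difference was not tested, since each line has 1 pooled value. The log2 ratio of ERG over Vector minus that of ERG+mAKT over mAKT was −2.18 for SPRR1A, −2.83 for SPRR1B, −3.46 for SPRR2A, −2.65 for SPRR3 and −1.83 for A2ML1. SPRR1B had the highest level of the 5 in RWPE1-Vector, with log2 ratios of −2.12 without mAKT and 0.70 with it. For SPRR2A, the log2 ratio without mAKT was −0.45, inside 2-fold, and both values there were under 1 FPKM. SPRR1A, SPRR3 and A2ML1 were likewise under 1 FPKM in RWPE1-Vector and in RWPE1-ERG.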

How the results depend on the processing

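With a pseudocount of 1 FPKM, the members at least 2-fold higher for ERG over Vector went from 2 to 0 and those lower from 4 to 1. With a fold of 1.5, members higher for ERG+mAKT over mAKT went from 3 to 7. Of 45 ratios of single members recomputed with the pseudocount, 24 moved by over 1.5-fold. A pseudocount cannot change the direction of a ratio, and the median ratios were too close to 0 for centring to turn a 2-fold ratio around. These settings therefore say nothing on how firm the directions are. A q-value limit of 0.01 left 0 members with an ERG, ERK2 or H3K27me3 peak nearby in each such list and changed no ATAC count by more than 1.5 times. Most peaks of the ERG, ERK2 and H3K27me3 lists did not meet that limit anywhere. A window of 5 kb, or 20 kb from the start, left 0 members with a VCaP ERG peak and 0 with an ERK2 peak of RWPE1-ERG cells. ATAC peaks over the promoter, an alternative chosen after seeing the data, were at 2 members in RWPE1-ERG, 4 in RWPE1+mAKT and 1 in RWPE1-ERG+mAKT cells. Median centring changed no count of members by more than 1.5 times. No paired analysis was possible because the RNA-seq values are pooled over libraries, and for the same reason leaving out a library could not be run. RNA-seq depth is not given in the sources used here, which limits what the lowest FPKM values can show.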
